A study of Mus musculus with 23 samples.

Results

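The genes described here are the 61 Wnt pathway genes of a mouse intestine RNA sequencing study, out of 22517 named genes in its deposited tables. They were chosen by symbol: every gene of the Wnt, Frizzled (Fzd), Dickkopf (Dkk, with Dkkl1), secreted Frizzled-related protein (Sfrp) and R-spondin (Rspo) families, plus a fixed set of receptors, feedback inhibitors, core components and transcription factors. By role they comprised 19 Wnt ligands, the ligand-modifying enzyme Porcn, 4 R-spondins, 10 Frizzled receptors, 3 co-receptors, 10 secreted inhibitors, 3 cytoplasmic core genes, 4 TCF/LEF factors and 7 feedback targets.

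Wnt proteins are lipid-modified secreted signals that bind Frizzled receptors and the co-receptors Lrp5 and Lrp6 on neighbouring cells. In the canonical branch this stops the Axin and Apc destruction complex from degrading beta-catenin (Ctnnb1), which then enters the nucleus and works with TCF/LEF factors to switch on target genes. Several targets are themselves brakes on the pathway. In the small intestine the pathway keeps stem cells dividing at the crypt base, and R-spondins reinforce it by removing the ubiquitin ligases Rnf43 and Znrf3 from the cell surface. Some ligands, among them Wnt4, Wnt5a and Wnt11, are also known for beta-catenin-independent signalling.

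RNA libraries of 3 groups were compared, with 3 libraries in each. Eed-null villus came from EedF/F mice with Villin-CRE, a Cre recombinase driven by an intestinal epithelial promoter; Eed is needed for the activity of Polycomb repressive complex 2 (PRC2), the enzyme that methylates histone H3 at lysine 27 at silent genes. Control villus came from EedF/F mice without Cre. Intestinal stem cells (ISC) were the cells with high Lgr5-GFP sorted from Eed+/+ mice carrying Lgr5-EGFP-IRES-CREERT2. All mice were of a mixed B6;129 background, their age was not given, and every one of the 9 had received 1 to 2 mg tamoxifen on 5 days, so the controls carry that treatment too. Villus epithelium was released with EDTA and frozen directly, whereas ISC went through enzymatic dissociation and sorting. Control villus and ISC also differed in Eed genotype and in the Lgr5-EGFP-IRES-CREERT2 allele. Handling, genotype and cell type therefore cannot be told apart between control villus and ISC. Nor can Cre and Eed loss between Eed-null and control villus.

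The deposited tables give 1 RPKM value (reads scaled by gene length and by mapped reads) per group. The spread between libraries and their depth are therefore unknown, no SD can be printed, and the authors' q-value is the only measure of error. A gene was called where the authors had tested it and q was at or below 0.05, and ratios are those of the deposited RPKM. The villus samples are bulk tissue, in which fewer cells of a type and less RNA per cell cannot be told apart.

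Marker genes were checked against the labels. Eed itself stood at 3.00 RPKM in Eed-null villus and 9.17 RPKM in control villus (q = 6.29e-06 in the authors' deposited table). Of 9 tested enterocyte markers 8 were called higher in control villus than in ISC, and all 8 stem cell markers other than Axin2 were called higher in ISC, among them Lgr5 at 0.607 RPKM in control villus and 18.3 RPKM in ISC. All 10 proliferation markers were also called higher in ISC, with Mki67 at 7.18 RPKM in control villus and 53.2 RPKM in ISC. Between Eed-null and control villus, 1 of 9 enterocyte, 1 of 7 stem cell and 1 of 10 proliferation markers were called, each lower in Eed-null villus. Taken by level alone, all 10 proliferation markers were lower in Eed-null villus, with sums of 85.9 RPKM there and 119.7 RPKM in control villus. By level 8 of 10 enterocyte markers were lower in Eed-null villus and Epcam was higher. Apoa4 was listed at 0 in control villus with a status other than OK, so its levels cannot be compared. Of 8 stem cell markers 2 were lower in Eed-null villus and 6 higher. Secretory cell markers moved both ways in that comparison. Of 10 genes listed as Paneth markers 2 were called higher in Eed-null villus, Spink4 at 2.69-fold and Ang4 at 2.05-fold, and 1 lower, Defa22. Whether each of the 10 is confined to Paneth cells was not checked. Of 8 enteroendocrine markers 2 were called higher in Eed-null villus, Gip and Tac1, and 1 lower, Gcg. These markers were named after their values were seen, and their part in the Wnt gene calls of that comparison was not tested.

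Levels varied widely across the pathway. Ctnnb1 was the most abundant member in every group, with 327 RPKM in Eed-null villus and 294 RPKM in control villus in one table, and 341 RPKM in control villus and 173 RPKM in ISC in the other. The co-receptors, Axin1, Apc, Axin2, Rnf43, Sp5 and Fzd5 stood between 7.41 and 61.7 RPKM in every group. Wnt4 and Tcf7l2 in Eed-null villus and Sfrp5 and Fzd7 in ISC also lay within that range. At 1 RPKM or more stood 17 of the 61 genes in Eed-null villus and 13 in control villus of the same table, and 13 in control villus and 22 in ISC of the other. Most ligands, all R-spondins and most secreted inhibitors lay below that level.

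**Figure D1:**
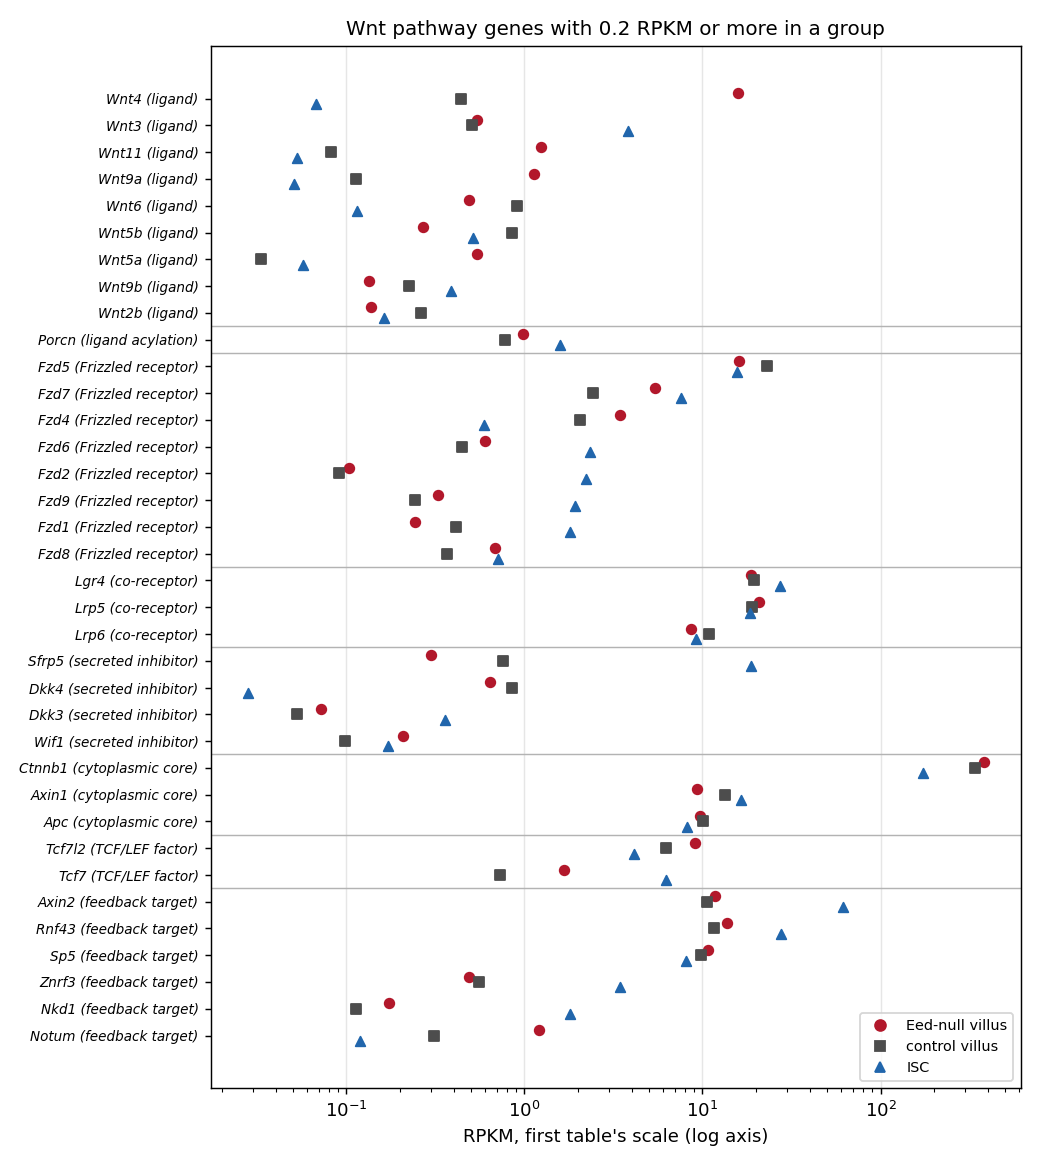
RPKM (log axis) of the 36 Wnt pathway genes that reached 0.2 RPKM in a group, by role; circles are Eed-null villus, squares control villus and triangles ISC, each point 1 pooled value of 3 libraries. Eed-null values were set on the scale of the villus and ISC table by the shared control villus values, which differ between tables by a factor of 1.16193. Wnt4 stands far to the right in Eed-null villus, at 15.9 RPKM on that scale.

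The comparison of control villus with ISC asks how the pathway is set in differentiated cells against stem cells. Of 30 tested members, 19 were called, 63.3% of those tested, against 62.8% of all 13007 tested genes, so calls as such were about as frequent as elsewhere in this comparison. By direction, 6 members were called higher in villus, 20.0% of those tested, beside 30.5% of all tested genes. In ISC 13 were higher, 43.3% of those tested, beside 32.3% of all tested genes. The median log2 ratio of villus over ISC was -0.86 over the 30 members and -0.10 over 12846 tested genes with a level above 0 in both groups; on the log2(RPKM + 1) scale the members' median was -0.35. With at least 1 RPKM required in a group, 3 members rather than 6 were called higher in villus. Higher in ISC were 4 of 5 tested feedback targets and 5 of 8 tested Frizzled receptors, and higher in villus were beta-catenin mRNA, 2 ligands, 2 Frizzled receptors and 1 secreted inhibitor.

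The filter on level fixed some of these directions. No gene was tested unless it reached 0.246 RPKM in one group. Reaching it did not ensure a test: Notum and Wnt2b, at 0.312 and 0.262 RPKM in villus, were not tested. Dkk3, Fzd2, Fzd9, Nkd1 and Wnt9b were below 0.246 RPKM in villus and entered only through ISC. Dkk4, Wnt4 and Wnt6 were below it in ISC and entered only through villus. Of these 8 all but Wnt9b were called. Among the 22 members at or above it in both groups, 3 were called higher in villus, 13.6%, beside 30.8% of 11617 such genes. In ISC 9 of the 22 were higher, 40.9%, beside 31.7% of such genes, and the median log2 ratio was -0.71 over the 22 members and -0.05 over the 11617 genes.

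Feedback targets are genes that beta-catenin and TCF activate and that restrain the pathway in turn. Of 5 tested, none was called higher in villus and 4 were called higher in ISC, where 30.5% and 32.3% of all tested genes were called in these directions; Nkd1 was tested only through its ISC level. Axin2, a scaffold of the destruction complex and a widely used readout of canonical Wnt signalling, had 10.6 RPKM in control villus and 61.7 RPKM in ISC, 5.82-fold higher in ISC (q listed as 0 in the authors' deposited table). Nkd1, which binds Dishevelled and dampens the signal, had 0.114 RPKM in villus, against 1.80 RPKM in ISC. It was 15.8-fold higher in ISC (q = 4.06e-14 in the authors' deposited table).

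The ubiquitin ligases that remove Frizzled from the membrane followed the same direction. Znrf3 had 0.556 RPKM in control villus and 3.44 RPKM in ISC, 6.19-fold higher in ISC (q = 2.53e-14 in the authors' deposited table). Its relative Rnf43 had 11.6 RPKM in villus, against 27.7 RPKM in ISC, a smaller difference of 2.39-fold (q = 3.13e-07 in the authors' deposited table). Rnf43 shares its locus entry with 1110028F11Rik, so reads of the pair may not be separable. Sp5, a zinc-finger repressor induced by Wnt, went against the rest with 9.82 RPKM in villus, against 8.05 RPKM in ISC and was not called (q = 0.364 in the authors' deposited table). Notum, a secreted enzyme that strips the lipid from Wnt, at 0.312 RPKM in villus, against 0.120 RPKM in ISC, and Nkd2, at 0.0232 RPKM in villus, against 0.0453 RPKM in ISC, were not tested.

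**Figure D2:**
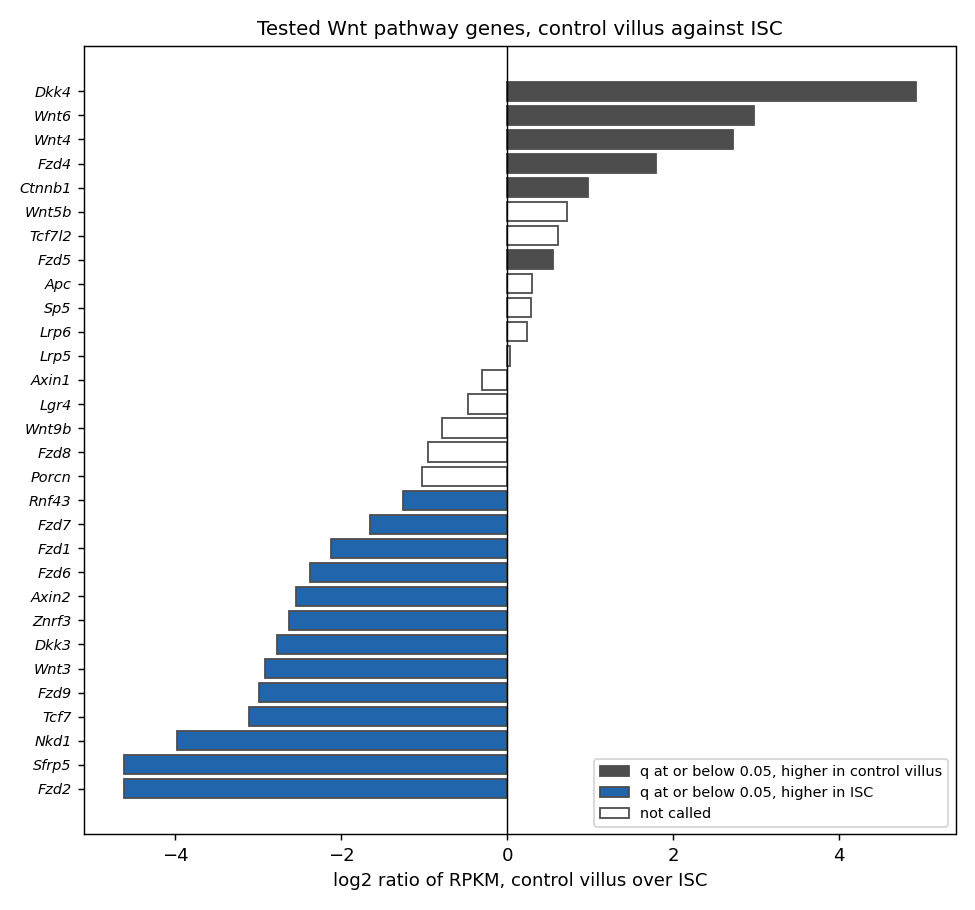
Log2 ratio of RPKM, control villus over ISC, for the 30 tested Wnt pathway genes; dark bars were called higher in control villus, blue bars higher in ISC, and open bars were not called. The 13 blue bars include 4 feedback targets and 5 Frizzled receptors.

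The upstream regions of the feedback targets are shown because these genes are the pathway's own readout. They are the 250 bases before each gene's farthest upstream start among the RefSeq windows, build GRCm38.p6, all on the plus strand. Capitals mark CG dinucleotides in Axin2 (chr11:108920099-108920348), Rnf43 (chr11:87662837-87663086) and Nkd1 (chr8:88527383-88527632). Sp5 (chr2:70474673-70474922), the target that was not called, was added after its values were seen, and its capitals mark a match to the TCF core letters.
Axin2: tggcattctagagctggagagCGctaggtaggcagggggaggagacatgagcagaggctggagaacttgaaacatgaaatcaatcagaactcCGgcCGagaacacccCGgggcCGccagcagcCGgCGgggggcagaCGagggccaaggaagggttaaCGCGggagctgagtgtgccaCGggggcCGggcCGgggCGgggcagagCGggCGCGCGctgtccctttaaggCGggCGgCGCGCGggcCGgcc
Rnf43: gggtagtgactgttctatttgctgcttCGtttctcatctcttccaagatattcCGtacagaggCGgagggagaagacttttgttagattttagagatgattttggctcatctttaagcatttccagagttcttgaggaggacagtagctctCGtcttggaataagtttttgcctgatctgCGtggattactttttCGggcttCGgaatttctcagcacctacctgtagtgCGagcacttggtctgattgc
Nkd1: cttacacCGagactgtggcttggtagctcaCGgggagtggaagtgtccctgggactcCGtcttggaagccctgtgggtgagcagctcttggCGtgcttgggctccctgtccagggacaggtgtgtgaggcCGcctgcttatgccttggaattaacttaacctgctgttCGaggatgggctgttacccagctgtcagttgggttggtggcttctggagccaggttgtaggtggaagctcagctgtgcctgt
Sp5: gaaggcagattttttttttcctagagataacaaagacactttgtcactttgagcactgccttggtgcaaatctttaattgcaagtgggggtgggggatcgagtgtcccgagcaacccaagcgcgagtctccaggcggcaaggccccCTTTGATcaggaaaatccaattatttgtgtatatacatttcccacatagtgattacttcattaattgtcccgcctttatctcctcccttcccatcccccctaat
The CG count in the 300-base window, which adds the 50 bases after the start, was 31 for Axin2, 10 for Rnf43, 6 for Nkd1 and 6 for Sp5. Of 15888 genes with such a window in both sources, 85.7% had fewer than Axin2, 40.5% fewer than Rnf43 and 30.3% fewer than Nkd1. These windows were searched on both strands for CTTTGAA and CTTTGAT, letters of the TCF core motif that differ from each other in the last base. Only Sp5 of these 4 held a match, 104 bases before its start. Among the 40 members with a window, 3 held one (7.5%): Sp5, Wnt11 on the minus strand and Dkk1. The share over the 15888 genes was 7.74%.

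Frizzled proteins are the receptors that bind Wnt. Of 8 tested, 2 were called higher in control villus and 5 in ISC, against 30.5% and 32.3% of all tested genes in these directions; Fzd2 and Fzd9 were tested only through their ISC level. Summed over the 10 receptors the level was 29.0 RPKM in control villus and 32.9 RPKM in ISC. Fzd5, which is required for Wnt signalling in Paneth cells, made up 79.1% of that sum in villus and 47.6% in ISC. It had 23.0 RPKM in villus, against 15.6 RPKM in ISC, 1.47-fold higher in villus (q = 0.0248 in the authors' deposited table).

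Fzd7, a receptor known for maintaining Lgr5-positive stem cells, had 2.41 RPKM in control villus and 7.58 RPKM in ISC. Fzd2 had 0.0904 RPKM in villus, against 2.21 RPKM in ISC, the largest ratio among the receptors at 24.5-fold. Fzd9 had 0.244 RPKM in villus, against 1.94 RPKM in ISC. These 3 were thus all above 1 RPKM in ISC, and of them only Fzd7 was so in villus. Fzd6, known chiefly from planar cell polarity, had 0.447 RPKM in villus, against 2.32 RPKM in ISC, and Fzd1 had 0.414 RPKM in villus, against 1.81 RPKM in ISC. In the authors' deposited table q was 4.55e-09 for Fzd7, 2.35e-14 for Fzd2, 3.64e-07 for Fzd9, 4.97e-08 for Fzd6 and 6.12e-07 for Fzd1.

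Fzd4, which in the retina is the receptor for the non-Wnt ligand Norrin, ran the other way, with 2.06 RPKM in control villus and 0.592 RPKM in ISC. It was 3.47-fold higher in villus (q = 0.000215 in the authors' deposited table). Fzd8 had 0.369 RPKM in villus, against 0.711 RPKM in ISC and was not called (q = 0.101 in the authors' deposited table). Fzd3 and Fzd10 were not tested, neither above 0.0339 RPKM.

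The co-receptors did not pass the test. Lrp5 had 19.0 RPKM in control villus and 18.6 RPKM in ISC (q = 0.903 in the authors' deposited table), and Lrp6 had 10.8 RPKM in villus, against 9.20 RPKM in ISC (q = 0.359 in the authors' deposited table). Lgr4, a receptor for R-spondins, had 19.6 RPKM in villus, against 27.1 RPKM in ISC (q = 0.0597 in the authors' deposited table). Its relative Lgr5, the stem cell marker given above, was 30.1-fold higher in ISC (q listed as 0 in the authors' deposited table). The R-spondins themselves were at the bottom of the range: none of the 4 was tested, and the highest value in villus or ISC was 0.0277 RPKM, for Rspo4 in villus.

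Secreted inhibitors act outside the cell, the Sfrp proteins by binding Wnt and Dkk1, Dkk2 and Dkk4 by binding Lrp5 and Lrp6. All 3 tested were called, where 62.8% of all tested genes were called in either direction. Dkk3 was tested only through its ISC level and Dkk4 only through its villus level. Sfrp5 had 0.763 RPKM in control villus and 18.7 RPKM in ISC, 24.5-fold higher in ISC (q listed as 0 in the authors' deposited table), and made up 96.4% of the family's summed level in ISC. Dkk4 had 0.851 RPKM in villus, against 0.0280 RPKM in ISC, 30.4-fold higher in villus (q = 0.000526 in the authors' deposited table). Dkk3, a divergent member of its family, had 0.0527 RPKM in villus, against 0.360 RPKM in ISC (q = 0.00235 in the authors' deposited table). Sfrp5 thus led in ISC, whereas in control villus Dkk4 and Sfrp5 lay close together, both below 1 RPKM. The other 7, Dkk1, Dkk2, Dkkl1, Sfrp1, Sfrp2, Sfrp4 and Wif1, were not tested, with no value above 0.171 RPKM.

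Only 5 of 19 ligands were tested between villus and ISC. Wnt3, which Paneth cells supply to stem cells, had 0.505 RPKM in control villus and 3.82 RPKM in ISC, 7.56-fold higher in ISC (q = 9.66e-13 in the authors' deposited table), and made up 71.7% of the summed ligand level in ISC. Of 7 tested genes listed as Paneth markers, 6 were called higher in ISC and 1, Guca2a, higher in villus. Over all 10 listed Paneth markers the summed level was 10317 RPKM in control villus and 10337 RPKM in ISC. These sums cannot be set against each other, because 3 of the 10 were listed at 0 in ISC with a status other than OK. They were Defa17, Defa24 and Lyz1, with 97.2, 4334 and 1021 RPKM in control villus. The part of the Paneth markers in the Wnt3 value was not tested.

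Wnt6 and Wnt4 were the ligands higher in villus. Wnt6 had 0.908 RPKM in control villus and 0.115 RPKM in ISC, 7.89-fold higher in villus (q = 0.000137 in the authors' deposited table). Wnt4 had 0.441 RPKM in villus, against 0.0671 RPKM in ISC, 6.58-fold higher in villus (q = 0.000234 in the authors' deposited table). All 4 of these values were below 1 RPKM. Wnt5b, at 0.847 RPKM in villus, against 0.516 RPKM in ISC, and Wnt9b, at 0.225 RPKM in villus, against 0.387 RPKM in ISC, were not called (q = 0.619 and q = 0.223 in the authors' deposited table). Wnt5b shares its locus entry with Fbxl14. Porcn, the enzyme that adds the lipid to every Wnt, had 0.773 RPKM in villus, against 1.57 RPKM in ISC and was not called (q = 0.0765 in the authors' deposited table).

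In the cytoplasmic core, Ctnnb1 was 1.97-fold higher in control villus, with 341 RPKM in villus, against 173 RPKM in ISC (q = 0.00120 in the authors' deposited table). Beta-catenin also links cadherins at cell junctions, and its mRNA level says nothing of the protein's stability or place in the cell. Axin1 had 13.4 RPKM in villus, against 16.5 RPKM in ISC, and Apc had 10.1 RPKM in villus, against 8.14 RPKM in ISC. Neither was called (q = 0.314 for Axin1 and 0.230 for Apc in the authors' deposited table), and Apc shares its locus entry with Gm10548.

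The nuclear partners differed between villus and ISC in which gene led. Tcf7, which encodes TCF1, had 0.725 RPKM in control villus and 6.25 RPKM in ISC, 8.63-fold higher in ISC (q = 2.01e-14 in the authors' deposited table). Tcf7l2, which encodes TCF4 and is needed for crypt stem cells, had 6.28 RPKM in villus, against 4.11 RPKM in ISC and was not called (q = 0.0860 in the authors' deposited table). Per length, Tcf7l2 thus led in villus and Tcf7 in ISC. Tcf7 is also abundant in T cells. Of the leukocyte markers 7 of 9 tested were called higher in villus and none in ISC, with a sum over all 12 of 118 RPKM in villus, against 27.4 RPKM in ISC. Their part in the Tcf7 values was not tested. Lef1 and Tcf7l1 were not tested, neither above 0.152 RPKM.

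The second comparison, Eed-null against control villus, asks which of these genes change when PRC2 is lost in the epithelium. Of 29 tested members 7 were called, all higher in Eed-null villus: the ligands Wnt4, Wnt11, Wnt9a and Wnt5a, the receptor Fzd7, the factor Tcf7 and the feedback target Notum. None was called lower by the authors' test (the submitters' processing notes name Cuffdiff, with no role); at an unadjusted p under 0.05 there were 8 higher and 2 lower, Fzd5 and Sfrp5. The 7 were 24.1% of those tested, beside 11.4% of all 12525 tested genes called in either direction, 7.90% higher and 3.46% lower. The median log2 ratio was 0.15 over the 29 members and -0.08 over 12428 tested genes.

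That share has to be read with the level. No gene was tested unless it reached 0.351 RPKM in one group, so a gene below that level in control villus could enter the test only by being higher in Eed-null villus. Of the 29 members 5 were below it in control villus, Wnt11, Wnt9a, Wnt5a, Notum and Fzd8, and 4 of them were called higher, beside 50.2% of the 743 genes of that kind. Of the 24 members at or above it 3 were called higher, Wnt4, Fzd7 and Tcf7, or 12.5%, beside 5.23% of 11782 genes. With so few members neither share is given a test.

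Wnt4, a ligand of kidney and gonad development, had the largest change. It stood at 13.7 RPKM in Eed-null villus and 0.380 RPKM in control villus, 36.0-fold higher (q listed as 0 in the authors' deposited table). On mm9, the files' build, it lies at chr4:136833549-136855416. Wnt11, at chr7:105987354-106003257, had 1.07 RPKM in Eed-null villus and 0.0709 RPKM in control villus, 15.1-fold higher (q = 9.02e-07 in the authors' deposited table). Wnt9a, at chr11:59120431-59147054, had 0.973 RPKM in Eed-null villus and 0.0972 RPKM in control villus, a log2 ratio of 3.32 (q = 2.62e-07 in the authors' deposited table). Wnt5a, the best-studied ligand of beta-catenin-independent signalling, lies at chr14:29318658-29338620. It had 0.465 RPKM in Eed-null villus and 0.0287 RPKM in control villus, 16.2-fold higher (q = 7.64e-05 in the authors' deposited table).

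Wnt4 thus stood well above the other 3, which were below 0.1 RPKM in control villus and at 1.07 RPKM or less in Eed-null villus. The sum over the 19 ligands was 17.8 RPKM in Eed-null villus and 3.00 RPKM in control villus. Wnt4 made up 77.0% of the Eed-null sum, and without it the other 18 summed to 4.09 RPKM. In ISC these 4 ligands were low too, with 0.0671 RPKM for Wnt4, 0.0525 RPKM for Wnt11, 0.0509 RPKM for Wnt9a and 0.0571 RPKM for Wnt5a in the other table.

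**Figure D3:**
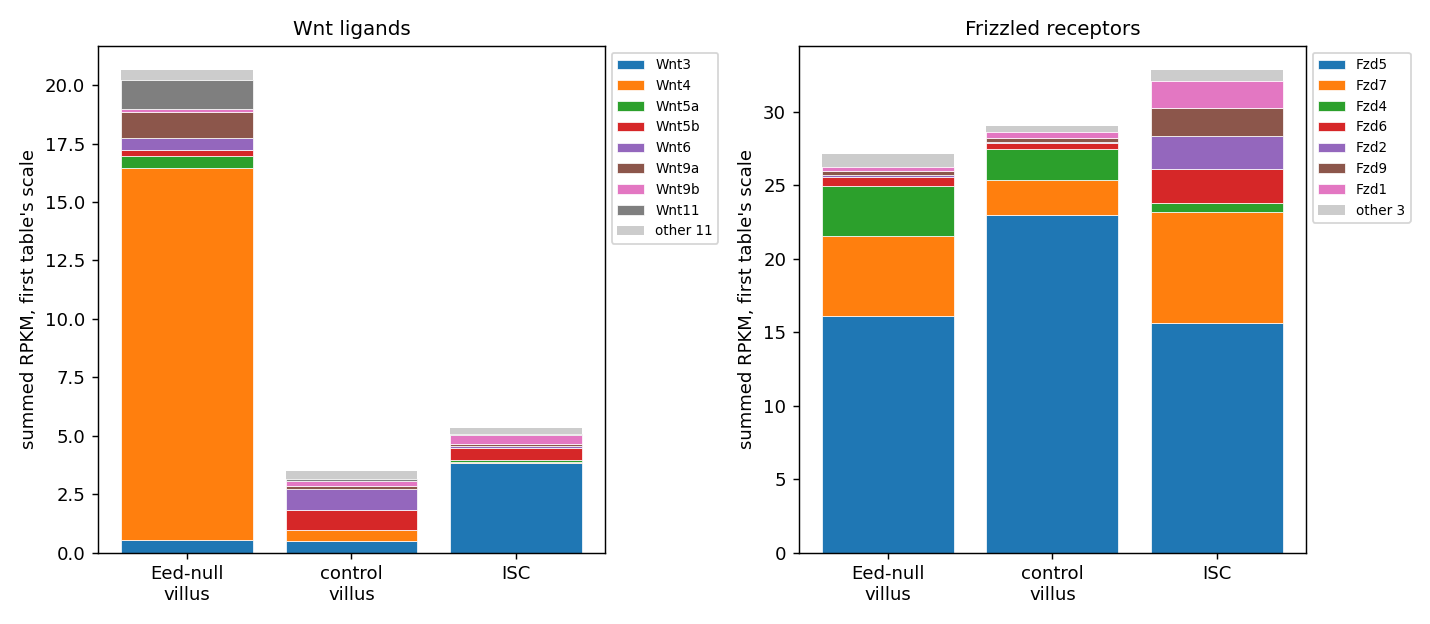
Summed RPKM of the 19 Wnt ligands (left) and 10 Frizzled receptors (right) in Eed-null villus, control villus and ISC, stacked by gene; each bar is a sum of pooled values without error, and Eed-null values are set on the scale of the villus and ISC table. Wnt4 fills most of the Eed-null ligand bar and Wnt3 most of the ISC bar, while Fzd5 is the largest part of every receptor bar.

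Cells under the epithelium are a known source of Wnt5a and other ligands. Of 16 mesenchyme markers, 2 were tested and 0 called between Eed-null and control villus by the authors' test. Their summed level was 3.08 RPKM in Eed-null villus and 1.88 RPKM in control villus, and 10 of the 16 in Eed-null villus and 14 in control villus were below 0.1 RPKM. Pdgfra had 0.0887 RPKM in Eed-null villus and 0.0171 RPKM in control villus, and Col1a1 had 0.0910 RPKM in Eed-null villus and 0.0519 RPKM in control villus. Taken by level alone, 14 of the 16 were higher in Eed-null villus, Myh11 was lower, and Lum was listed at 0 in both groups. Vim supplied 1.59 RPKM of the Eed-null sum and 1.17 RPKM of the control sum. Among those above 0 in both groups the largest ratios were those of Gli1, with 0.0305 RPKM in Eed-null villus and 0.00329 RPKM in control villus, and of Pdgfra. The part of such cells in the ligand values was not tested.

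The upstream regions of Wnt4, Wnt9a and Wnt11, printed because these are the ligands with the highest levels in Eed-null villus and chosen after their values were seen, were all dense in CG, the base pair context of the CpG islands where PRC2 is known to act. They are from RefSeq, build GRCm38.p6, plus strand, the 250 bases before the start: Wnt4 at chr4:137277385-137277634, Wnt9a at chr11:59306680-59306929 and Wnt11 at chr7:98834862-98835111. Capitals mark CG dinucleotides.
Wnt4: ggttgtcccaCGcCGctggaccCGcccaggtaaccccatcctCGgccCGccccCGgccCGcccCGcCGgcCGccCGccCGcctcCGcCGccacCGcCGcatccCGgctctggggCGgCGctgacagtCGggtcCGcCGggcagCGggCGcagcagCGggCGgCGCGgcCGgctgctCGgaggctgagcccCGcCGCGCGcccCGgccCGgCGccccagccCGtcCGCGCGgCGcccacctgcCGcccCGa
Wnt9a: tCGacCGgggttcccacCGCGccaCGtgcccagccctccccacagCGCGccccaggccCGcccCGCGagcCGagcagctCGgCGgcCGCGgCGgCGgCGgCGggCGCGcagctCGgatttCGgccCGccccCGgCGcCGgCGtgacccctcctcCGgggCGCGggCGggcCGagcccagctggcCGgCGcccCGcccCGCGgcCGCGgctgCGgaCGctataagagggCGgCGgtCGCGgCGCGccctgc
Wnt11: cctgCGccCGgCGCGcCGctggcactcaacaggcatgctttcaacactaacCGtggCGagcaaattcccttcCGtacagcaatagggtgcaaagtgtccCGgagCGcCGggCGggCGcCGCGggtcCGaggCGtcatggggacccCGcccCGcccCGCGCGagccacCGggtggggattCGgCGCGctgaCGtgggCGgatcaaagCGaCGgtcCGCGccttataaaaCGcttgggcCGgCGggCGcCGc
In the 300-base windows Wnt9a held 58 CG, Wnt4 51 and Wnt11 45. Fewer were held by 99.9% of the 15888 listed genes for Wnt9a, 99.1% for Wnt4 and 97.5% for Wnt11. Across the 40 members with a window the median was 28, against 14 for the 15888 genes. The 12 other ligands with a window held 6 to 47, with a median of 28. Wnt5a and Notum, also called higher in Eed-null villus, had no window. The 5 called members with a window, which add Tcf7 with 45 and Fzd7 with 24, had a median of 45; the 13 tested and not called had 31 and the 22 not tested had 26. Among all genes the order was different: the 703 called higher in Eed-null villus had a median of 17, and the 9260 tested had 20. These counts describe the letters only. Histone marks and DNA methylation at these windows were not analysed here.

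**Figure D4:**
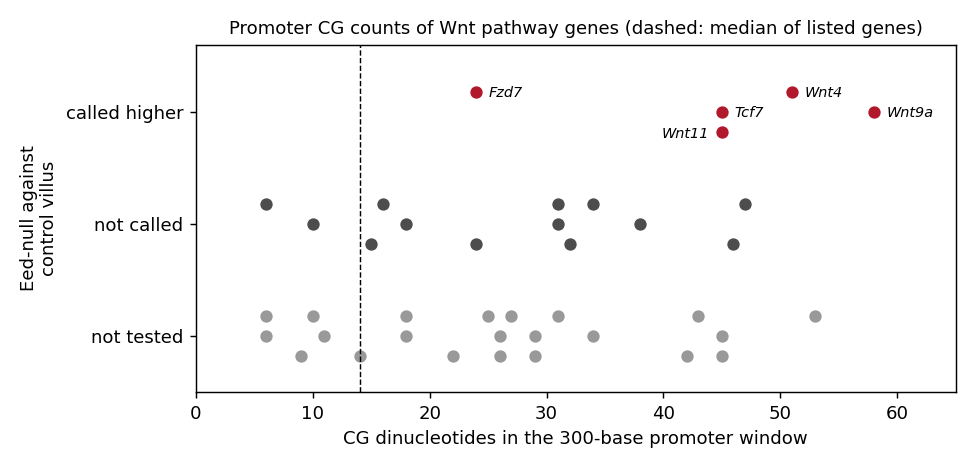
Number of CG dinucleotides in the 300-base promoter window of 40 Wnt pathway genes, by their call between Eed-null and control villus; each point is 1 gene, spread vertically for legibility, and the dashed line is the median of 14 over 15888 listed genes. The 5 genes called higher lie at 24 to 58, and genes that were not called or not tested reach 53.

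Among receptors, Fzd7 at chr1:59538990-59543799 was the only one called. It had 4.67 RPKM in Eed-null villus and 2.08 RPKM in control villus, 2.25-fold higher (q = 0.000548 in the authors' deposited table). Set on the scale of the other table, Eed-null villus held 5.43 RPKM, between the 2.41 RPKM of control villus and the 7.58 RPKM of ISC. Fzd5 had 13.9 RPKM in Eed-null villus and 19.8 RPKM in control villus and was not called (q = 0.158 in the authors' deposited table). The summed receptor level was 23.3 RPKM in Eed-null villus and 25.0 RPKM in control villus, with Fzd5 at 59.4% of it in Eed-null villus and 79.1% in control villus.

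The remaining tested receptors were not called. Fzd4 had 2.96 RPKM in Eed-null villus and 1.77 RPKM in control villus (q = 0.121 in the authors' deposited table). Fzd8 had 0.589 RPKM in Eed-null villus and 0.317 RPKM in control villus (q = 0.249 in the authors' deposited table). Fzd6, with 0.517 RPKM in Eed-null villus and 0.385 RPKM in control villus, and Fzd1, with 0.208 RPKM in Eed-null villus and 0.356 RPKM in control villus, lay on either side of no change (q = 0.684 and q = 0.366 in the authors' deposited table). Fzd2 and Fzd9, both higher in ISC than in villus, were not tested, with 0.0889 and 0.280 RPKM in Eed-null villus and 0.0778 and 0.210 RPKM in control villus. Fzd3, also not tested, had 0.127 RPKM in Eed-null villus and 0.0194 RPKM in control villus.

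Tcf7 rose as well, to 1.44 RPKM in Eed-null villus against 0.624 RPKM in control villus (q = 0.0462 in the authors' deposited table). The difference was 2.31-fold and close to the threshold; the gene lies at chr11:52066105-52095752. On the scale of the other table Eed-null villus held 1.68 RPKM, beside 6.25 RPKM in ISC. The leukocyte markers summed to 69.5 RPKM in Eed-null villus and 101.6 RPKM in control villus, with 1 of 8 tested called lower in Eed-null villus and none higher, and their part in the Tcf7 value was not tested. Tcf7l2 had 7.86 RPKM in Eed-null villus and 5.40 RPKM in control villus and was not called (q = 0.362 in the authors' deposited table). Lef1 was not tested, at 0.121 RPKM in Eed-null villus and 0.0206 RPKM in control villus.

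Of the feedback targets only Notum was called. It lies at chr11:120515102-120522151 and had 1.04 RPKM in Eed-null villus and 0.268 RPKM in control villus, 3.87-fold higher (q = 0.00237 in the authors' deposited table). The other 4 tested feedback targets were not called. Axin2 had 10.2 RPKM in Eed-null villus and 9.12 RPKM in control villus (q = 0.815 in the authors' deposited table). Rnf43 had 11.8 RPKM in Eed-null villus and 9.97 RPKM in control villus (q = 0.674 in the authors' deposited table). Znrf3 had 0.418 RPKM in Eed-null villus and 0.478 RPKM in control villus (q = 0.877 in the authors' deposited table). Sp5 had 9.25 RPKM in Eed-null villus and 8.45 RPKM in control villus (q = 0.877 in the authors' deposited table). Nkd1, not tested, had 0.149 RPKM in Eed-null villus and 0.0980 RPKM in control villus. The tables give no interval for these ratios, so the size of change that the data could have missed cannot be stated. For scale, Axin2 and Rnf43 stood at 61.7 and 27.7 RPKM in ISC in the other table, whose scale is higher by a factor of 1.16193.

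**Figure D5:**
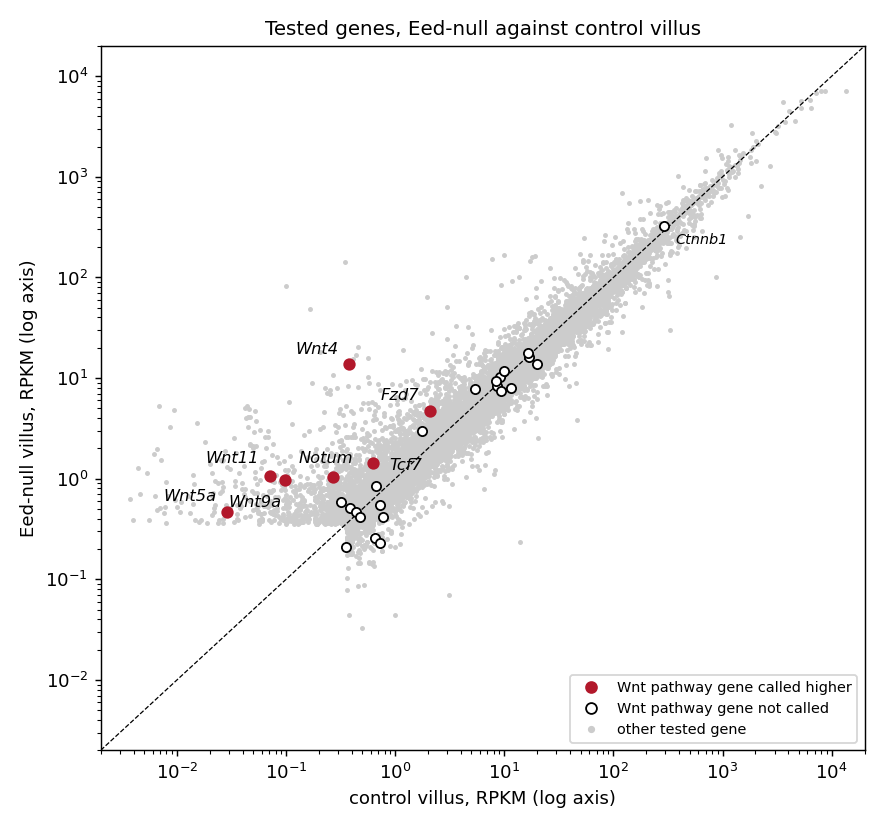
RPKM in Eed-null villus against RPKM in control villus (both log axes) for tested genes above 0 in both groups; red points are the 7 Wnt pathway genes called higher, open points the 22 not called, and grey points other genes, with equality dashed. Wnt4 is the farthest red point above the line, and Wnt11, Wnt9a, Wnt5a and Notum lie at the left, below 0.351 RPKM in control villus.

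The cytoplasmic core genes, the co-receptors and Porcn were not called. Ctnnb1 had 327 RPKM in Eed-null villus and 294 RPKM in control villus (q = 0.847 in the authors' deposited table). Axin1, with 8.04 RPKM in Eed-null villus and 11.6 RPKM in control villus, and Apc, with 8.34 RPKM in Eed-null villus and 8.66 RPKM in control villus, had q = 0.322 and q = 0.956 in the authors' deposited table. Lgr4 had 16.2 RPKM in Eed-null villus and 16.9 RPKM in control villus, and Lrp5 had 17.9 RPKM in Eed-null villus and 16.4 RPKM in control villus. Lrp6 had 7.41 RPKM in Eed-null villus and 9.33 RPKM in control villus. In the authors' deposited table q was 0.954 for Lgr4, 0.851 for Lrp5 and 0.454 for Lrp6. Porcn had 0.846 RPKM in Eed-null villus and 0.666 RPKM in control villus (q = 0.784 in the authors' deposited table).

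Secreted inhibitors were low in both villus groups, with sums of 1.28 RPKM in Eed-null villus and 1.65 RPKM in control villus. Sfrp5 had 0.258 RPKM in Eed-null villus and 0.656 RPKM in control villus (q = 0.0914 in the authors' deposited table), and Dkk4 had 0.548 RPKM in Eed-null villus and 0.733 RPKM in control villus (q = 0.761 in the authors' deposited table). The 3 tested ligands that were not called were also below 1 RPKM in both villus groups: Wnt3 at 0.464 RPKM in Eed-null villus and 0.435 RPKM in control villus, Wnt6 at 0.420 RPKM in Eed-null villus and 0.781 RPKM in control villus, and Wnt5b at 0.230 RPKM in Eed-null villus and 0.729 RPKM in control villus. In the authors' deposited table q was 0.968 for Wnt3, 0.273 for Wnt6 and 0.579 for Wnt5b. Wnt3, the leading ligand in ISC, was thus not among the 4 ligands called higher in Eed-null villus.

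The members that were not tested stayed low: 31 between villus and ISC, none above 0.312 RPKM, and 32 between Eed-null and control villus, none above 0.280 RPKM. Listed at 0 in both groups were 6 and 5 of them. In the Eed comparison the untested ligands were Wnt1, Wnt2, Wnt2b, Wnt3a, Wnt7a, Wnt7b, Wnt8a, Wnt8b, Wnt9b, Wnt10a, Wnt10b and Wnt16. Of these 3 reached 0.1 RPKM in Eed-null villus. Wnt1 had 0.110 RPKM in Eed-null villus and 0.00525 RPKM in control villus, Wnt2b had 0.118 RPKM in Eed-null villus and 0.226 RPKM in control villus, and Wnt9b had 0.116 RPKM in Eed-null villus and 0.194 RPKM in control villus. Wif1, a secreted inhibitor, had 0.179 RPKM in Eed-null villus and 0.0850 RPKM in control villus. No R-spondin exceeded 0.0410 RPKM in either villus group of that table.

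Outside the 61 genes, 94 further genes of the pathway were listed by role. Between control villus and ISC 77 were tested, 15 called higher in villus and another 42 in ISC, or 19.5% and 54.5% of those tested, beside 30.5% and 32.3% of all tested genes. Celsr2, Vangl2, Prickle1, Tnfrsf19 and Dact1 were below 0.246 RPKM in villus and entered only through ISC, and all but Dact1 were called. Known crypt targets made up much of the ISC side, with 1 of 20 tested called higher in villus and 18 in ISC. Slc12a2 had 14.4 RPKM in villus, against 215 RPKM in ISC, and Ascl2, a stem cell transcription factor, had 0.969 RPKM in villus, against 27.4 RPKM in ISC. Wls, the carrier that brings Wnt to the cell surface, had 3.39 RPKM in villus, against 19.6 RPKM in ISC (q = 1.99e-15 in the authors' deposited table). Ptk7 and Ror2, co-receptors of beta-catenin-independent signalling, had 0.272 and 0.356 RPKM in villus and 4.61 and 3.17 RPKM in ISC. Of the cytoplasmic regulators 8 of 22 tested were called higher in villus, 36.4%, near the 30.5% of all tested genes, and 3 in ISC, 13.6%, beside 32.3%.

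Between Eed-null and control villus 73 of the 94 were tested, 9 were called higher in Eed-null villus, 12.3% beside 7.90% of all tested genes, and none lower by the authors' test, beside 3.46%. Their median log2 ratio was 0.05. Of the 9, Apcdd1, Ror2, Celsr1 and Sox17 were below 0.351 RPKM in control villus. They could thus enter the test only by being higher in Eed-null villus, and 50.2% of all such genes were called higher. Tle2, Celsr3 and Vangl1 entered in the same way and were not called. The crypt targets contributed 4 of 19 tested: Lbh, Cd44, Ephb3 and Sox9. Cd44, a cell surface receptor of crypt cells, had 5.91 RPKM in Eed-null villus and 1.38 RPKM in control villus, 4.27-fold higher (q = 4.37e-09 in the authors' deposited table). Ephb3, which sorts crypt cells by position, had 3.39 RPKM in Eed-null villus and 0.963 RPKM in control villus (q = 1.72e-06 in the authors' deposited table). Lgr5 was not among them, at 0.592 RPKM in Eed-null villus and 0.523 RPKM in control villus (q = 0.894 in the authors' deposited table). Apcdd1, a membrane-bound Wnt inhibitor, had 4.87 RPKM in Eed-null villus and 0.313 RPKM in control villus, 15.6-fold higher (q listed as 0 in the authors' deposited table). Ror2, a receptor for Wnt5a, had 1.63 RPKM in Eed-null villus and 0.306 RPKM in control villus, 5.33-fold higher (q = 3.17e-07 in the authors' deposited table).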

How the data were processed

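RNA was measured by sequencing in 9 libraries, 3 in each of 3 groups; the 14 chromatin libraries were not used here. The 2 deposited tables hold 1 RPKM per gene and group, per the file headers of the first; the second names no unit, and its control villus values equal those of the first divided by 1.16193 (range 1.16192 to 1.16194 over 10583 genes), so it was read as RPKM on another scale. Per the file headers each gene has a p-value and a q-value from the authors' test; recomputing q by Benjamini-Hochberg over genes with status OK differed by at most 2.12e-06. The submitters' processing notes name Bowtie, TopHat2 2.0.6, Cufflinks 2.0.1, Cuffdiff and mm9 without roles; which gene annotation served is unknown here. The libraries do not mark strand, so overlapping genes cannot be told apart. Per the labels, libraries within a group are biological replicates.

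Calls required status OK and q at or below 0.05. Of each table's entries 22517 name a gene, and the 1 that does not was left out. No model could be fitted without values per library, so the depth is unknown, and q is the only precision. Since a listed 0 may reflect a failed estimate, no fold is given against one. Counts of members stand beside the share over all tested genes, and medians of log2 ratios of the deposited RPKM beside the median of all. Every member is accounted for: called members with both levels, others by level or range; of other pathway lists, called genes with the largest differences. Nothing was tested across tables. Promoter windows are RefSeq's, 1 per gene, taken at the start site farthest upstream where a gene had more. Windows at other start sites were not examined. A window was found for 40 of 61 members, and letters were counted with Python 3.11.15 and pandas 2.3.3. The counting of calls was tested on simulated data. Alternatives were a q of 0.01, a 2-fold minimum, a 1 RPKM minimum, shared loci left out, pseudocounts of 1 and 0.1, and another scaling. Members, lists and tests were chosen with earlier results of these data known.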

Additional observations from a re-analysis of the deposited data

How the results depend on the processing

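The 7 members called higher in Eed-null villus numbered 6 at q at or below 0.01, 5 with at least 1 RPKM in a group, and 7 with a 2-fold minimum, without shared loci or with the median ratio subtracted. The 0 called lower could not grow under these settings, which only narrow the calls. The 13 called higher in ISC numbered 12 or 13. The 6 called higher in control villus fell to 3 with at least 1 RPKM in a group, and were 4 to 6 otherwise. The median log2 ratio of villus over ISC was -0.35 with log2(RPKM + 1), -0.69 with log2(RPKM + 0.1), -1.26 with at least 1 RPKM in a group and -0.89 with the median of genes at 1 RPKM subtracted, against -0.86. That of Eed-null over control villus was 0.13 with log2(RPKM + 1) and 0.26 with the median subtracted, against 0.15; the subtracted medians, taken over the 9854 and 10048 genes that reached 1 RPKM on both sides, were 0.02 and -0.10. Neither a pseudocount nor so small a shift can turn the direction of the 26 called ratios, so these settings do not test it. At q at or below 0.01 only Fzd5 (villus against ISC) and Tcf7 (Eed-null) lost their call. No paired analysis was possible because the tables hold 1 pooled value per group; for the same reason no library could be left out.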

Other observations

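Of 14 planar polarity genes, which orient cells within the epithelial sheet, 10 were tested between control villus and ISC, with 1 called higher in villus and a further 8 in ISC, beside 30.5% and 32.3% of all tested genes. Of the 8, Celsr2, Vangl2 and Prickle1 were below 0.246 RPKM in villus and were tested only through their ISC level. Between Eed-null and control villus 8 were tested and 1 was called higher, beside 7.90% of all tested genes: Celsr1, a cadherin of the polarity complex, had 0.832 RPKM in Eed-null villus and 0.268 RPKM in control villus, 3.11-fold higher (q = 9.72e-05 in the authors' deposited table).

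Wnt genes form 4 pairs that lie next to each other on mm9 with no other gene starting between them, and members of a pair did not always have like levels. Wnt9a and Wnt3a are 16178 bases apart on chromosome 11; Wnt9a was called higher in Eed-null villus, and Wnt3a was listed at 0 in all 3 groups. Wnt3 and Wnt9b, 24353 bases apart on the same chromosome, had 0.505 and 0.225 RPKM in control villus and 3.82 and 0.387 RPKM in ISC. Wnt6 and Wnt10a are 6699 bases apart on chromosome 1, with Wnt10a listed at 0 in both villus groups of the Eed table. Wnt10b and Wnt1, 11706 bases apart on chromosome 15, had 0.0641 and 0.110 RPKM in Eed-null villus and 0.00533 and 0.00525 RPKM in control villus, and neither was tested.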
